A study of Mus musculus with 28 samples.

Results

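Caveolae are flask-shaped pits of the plasma membrane that cells use to buffer membrane tension, take up cargo and gather signalling proteins. Their coat is built from caveolins, integral membrane proteins, and from cavins, cytosolic proteins that assemble on the caveolin scaffold. The 5 genes described here are Cav1 and Cav2, which encode caveolin-1 and caveolin-2, and Cavin1, Cavin2 and Cavin3. They were taken by gene symbol from the deposited table. All 5 were present, of 13128 genes with a symbol, and all 5 passed the filter on low values.

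The libraries came from DC2, an immortalized line of mouse epithelial cells of the distal caput epididymidis, a part of the duct in which sperm mature. Cultures on collagen were grown to confluence and given corticosterone (500 ng/ml, dissolved in ethanol), a glucocorticoid hormone, or ethanol as vehicle (0.1%), and the medium was renewed on day 3, which ended the treatment, and again on day 6. The corticosterone groups were day 3, day 6 and day 9, and the vehicle groups were day 3, day 6, day 9 and day 0, the last with neither ethanol nor hormone. Each of the 7 groups had 4 libraries, 28 in all. All groups are the same single cell line, and nothing in the labels says that replicates came from separate cultures, so p-values measure only the spread between these libraries.

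Values are log2 CPM (CPM: counts scaled to a fixed library total) as normalized by the authors. Differences are log2 fold changes ± SE from limma with n = 4 libraries per group, and a gene is called at a Benjamini-Hochberg adjusted p under 0.05 over 13128 genes. Read depth was not given, so no counting error is attached. Corticosterone day 3 replicate 4 stood apart over all genes (root mean square distance from its group mean 0.390, against 0.187 to 0.275 in the other 27 libraries), and day 3 values are given without it where they moved most. Of 7 epithelial markers 6 were in the table. Krt18 was between 3.63 and 5.32 and Cldn4 between 4.42 and 5.62 log2 CPM in all libraries, Cdh1 between 1.36 and 4.00, and Krt8, Krt19 and Epcam stood no higher than 2.49, 2.15 and 1.80 log2 CPM. With hormone 0 of the 6 were called higher and 2 lower at day 3, 2 higher and 2 lower at day 6, and 3 higher and 1 lower at day 9. Of all genes, 49.0%, 47.2% and 28.5% were called on those days, and nothing about the list is read from its counts. The epithelial markers did not move as one. Cdh1, which encodes E-cadherin, fell by 1.24, 1.63 and 0.45. Krt8 averaged 1.49 in treated against 0.37 log2 CPM in vehicle libraries at day 6, and 2.31 against 0.68 at day 9. Epcam averaged 1.47 against -1.22 at day 9. Of 9 epididymal markers 5 were in the table, and Lcn5, Lcn8, Cst8 and Rnase9 were not among them. Pax8, a transcription factor of epididymal epithelium, was between 6.62 and 7.38 log2 CPM, and Pax2 between 5.96 and 6.55. Defb1, a defensin gene, had a vehicle mean at the lowest value of the table, -4.15, at days 3 and 9.

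Cavin2 lies on the plus strand at chr1:51289126-51302960 (mm10, GENCODE M21), Cavin1 on the minus strand at chr11:100956733-100970887 and Cavin3 on the minus strand at chr7:105480083-105482300. Cav2, at chr6:17281185-17289115, and Cav1, at chr6:17306335-17341452, are neighbours on the plus strand with 17220 bases between them. Genes on the opposite strand overlap Cav1 and Cav2 (Gm15581), Cavin2 (9330175M20Rik) and Cavin3 (Gm45667). None of them was in the table, and whether reads were assigned by strand is not given in the sources used here.

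The 250 bases upstream of the annotated start are shown for Cavin2, the gene with the largest hormone difference, and for the neighbours Cav1 and Cav2, which were not called higher on any day. They are RefSeq sequences on GRCm38.p6, at chr1:51288876-51289125, chr6:17306085-17306334 and chr6:17280935-17281184, all plus strand. RefSeq windows were matched for 4 of the 5 genes, all but Cavin3. Capitals mark matches, on either strand, of the glucocorticoid receptor half-site AGAACA, the TEAD site GGAATG, the GC box GGGCGG and the TATA box TATAAA.

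Cavin2: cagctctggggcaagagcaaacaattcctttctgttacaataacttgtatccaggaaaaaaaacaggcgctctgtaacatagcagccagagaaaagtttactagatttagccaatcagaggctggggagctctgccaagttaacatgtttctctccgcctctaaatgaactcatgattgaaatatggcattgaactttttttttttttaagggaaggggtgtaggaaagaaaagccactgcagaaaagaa

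Cav1: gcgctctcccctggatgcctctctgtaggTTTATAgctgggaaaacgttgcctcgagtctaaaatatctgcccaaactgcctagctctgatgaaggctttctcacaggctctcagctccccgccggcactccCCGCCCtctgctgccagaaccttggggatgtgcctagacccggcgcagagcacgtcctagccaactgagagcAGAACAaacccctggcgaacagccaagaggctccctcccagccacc

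Cav2: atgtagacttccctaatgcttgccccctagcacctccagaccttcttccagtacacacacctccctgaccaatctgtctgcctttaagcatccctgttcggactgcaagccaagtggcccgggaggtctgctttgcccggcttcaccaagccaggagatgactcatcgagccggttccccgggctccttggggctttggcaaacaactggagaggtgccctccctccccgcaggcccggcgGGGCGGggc

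None of these letters was found in the Cavin2 window, which had 40.4% G and C against a median of 52.4% over all windows. The Cav1 window shown held AGAACA 46 bases before the start, with the reverse of the GC box at 118 and the reverse of the TATA box at 221 bases before it, and 59.6% G and C. RefSeq has a second Cav1 start, and its window, chr6:17307390-17307639, held none of the 4 motifs. The Cav2 window held GGGCGG 9 bases before the start and 62.0% G and C. The Cavin1 windows, chr11:100970616-100970865 and chr11:100970618-100970867, lie inside its GENCODE span and are not shown. Each held the reverse of the TEAD site at 249 or 247 bases before its start and of the GC box at 9 or 7. Both had 67.6% G and C. Over 32817 windows of the same length, 16.1% held AGAACA, 12.6% GGAATG, 32.7% GGGCGG and 12.4% TATAAA, so matches of this kind are common. They are descriptions of letters only, and no binding was measured.

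Corticosterone moved the coat genes in different directions. At the end of treatment Cavin2 was 2.91-fold higher than in vehicle, Cavin1, Cavin3 and Cav2 were 1.40-fold, 1.45-fold and 1.26-fold lower, and Cav1 was not called. Thus 1 gene was called higher and 3 lower, 4 of 5, where 49.0% of all genes were called at day 3 (23.3% higher and 25.6% lower). At day 6, 3 days after the hormone was removed, 1 was higher and 2 lower, 3 of 5, against 47.2% of all genes (22.9% higher and 24.3% lower). At day 9, 1 was higher and 3 lower, 4 of 5, against 28.5% of all genes (14.1% higher and 14.4% lower). No test was made over the 5 genes as a set. The direction differed between genes in every one of the 3 comparisons while the median change of all genes was -0.0091, -0.0016 and 0.0029. In bulk RNA, fewer cells carrying a transcript and less of it per cell cannot be told apart.

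**Figure D1:**
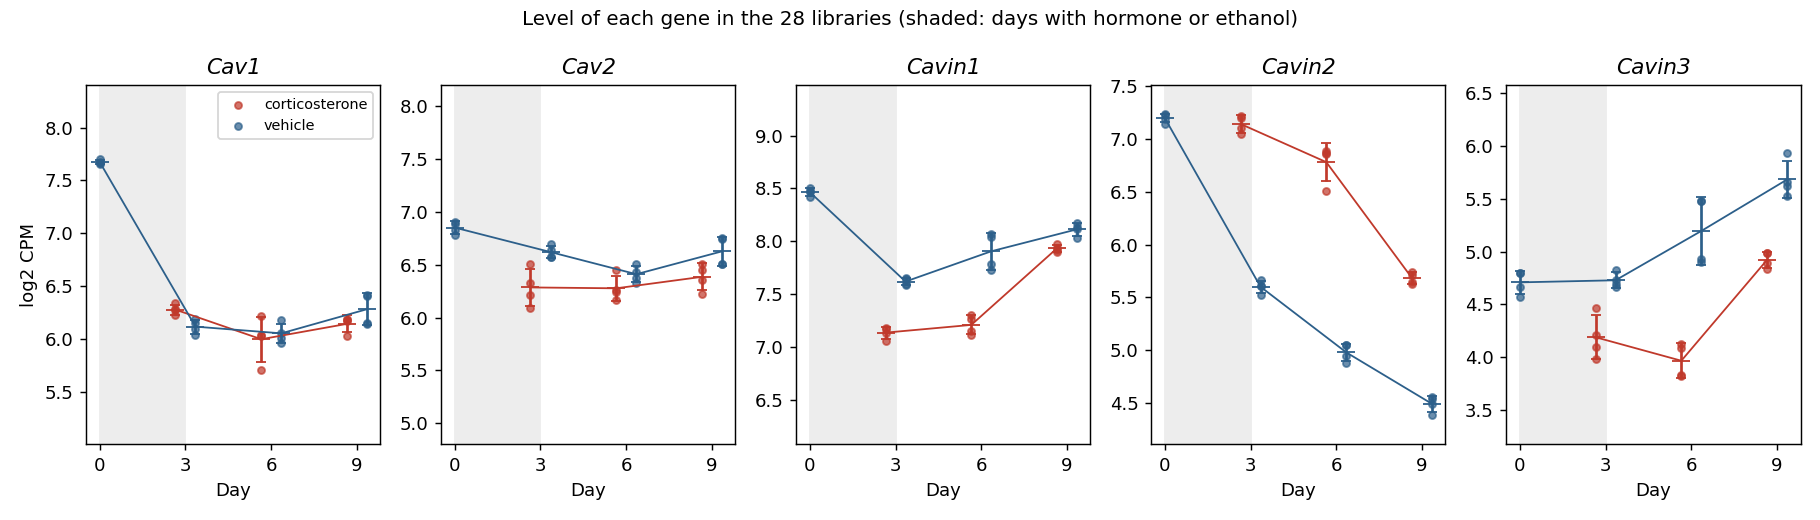
Level of each gene in log2 CPM (vertical axis, same span of 3.4 units in each panel) against day (horizontal axis) in the 28 libraries. Points are libraries, crossbars and error bars the mean ± SD of 4 libraries, red corticosterone (drawn just left) and blue vehicle (drawn just right); the grey band covers the treatment. The Cavin2 groups are apart on each day, with treated libraries at 7.05 to 7.22 on day 3, against 5.52 to 5.66 in vehicle.

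Cavin2, also called SDPR, is a phosphatidylserine-binding cavin that joins Cavin1 in the coat and is known for shaping and elongating the caveolar membrane. At day 3 it stood at 7.11, 7.22, 7.20 and 7.05 log2 CPM in corticosterone replicates 1, 4, 5 and 6, against 5.66, 5.61, 5.61 and 5.52 in vehicle replicates 3, 4, 5 and 6. No treated library came near a vehicle library, and the difference was 1.54 ± 0.07 (adjusted p = 4.1e-16). At day 6 it was at 6.86, 6.87, 6.89 and 6.51 in corticosterone replicates 1, 3, 5 and 6, against 5.05, 5.05, 4.94 and 4.88 in vehicle replicates 3 to 6.

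The day 6 groups were again apart, although treated replicate 6 lay below its 3 companions, and the difference was 1.80 ± 0.07 (3.48-fold, adjusted p = 2.8e-17). At day 9 Cavin2 was at 5.72, 5.63, 5.64 and 5.74 in corticosterone replicates 3 to 6, against 4.54, 4.49, 4.39 and 4.56 in vehicle replicates 3 to 6, a difference of 1.19 ± 0.07 (2.28-fold, adjusted p = 5.3e-13). Among genes ranked by their rise it was number 245 at day 3, 157 at day 6 and 99 at day 9 of 13128. The hormone difference did not pass the threshold for a change between days 3 and 6 (0.26 ± 0.09, adjusted p = 0.0839), but it did without corticosterone day 6 replicate 6 (0.35) and with weights per library (0.32). Between days 6 and 9 it fell by 0.61 ± 0.09 (adjusted p = 1.2e-05), and between days 3 and 9 by 0.35 ± 0.09 (adjusted p = 0.00389).

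The difference arose against a vehicle level that was itself falling. In vehicle, Cavin2 averaged 7.20 ± 0.04, 5.60 ± 0.06, 4.98 ± 0.08 and 4.49 ± 0.08 log2 CPM (mean ± SD, n = 4) at days 0, 3, 6 and 9. The fall was 1.60 ± 0.07 at day 3 relative to day 0 (adjusted p = 3.6e-17) and 2.71 ± 0.07 at day 9 (6.53-fold, adjusted p = 9.4e-22). Treated cultures averaged 7.14 ± 0.08, 6.78 ± 0.18 and 5.68 ± 0.05 at days 3, 6 and 9. The treated day 3 libraries therefore overlapped those of day 0 (7.14 to 7.24), and the treated day 9 libraries overlapped vehicle libraries of day 3. From the lowest group mean to the highest Cavin2 spanned 2.71 log2 units, the widest span of the 5 genes, against 1.68 for Cav1, 1.71 for Cavin3, 1.33 for Cavin1 and 0.57 for Cav2.

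Markers of other cells that carry many caveolae were examined beside this result. Of 7 endothelial markers 3 were in the table, among them Pecam1 and Vwf, at no more than 2.03 and 1.63 log2 CPM. Their summed level was 7.91 to 10.8 CPM in treated and 2.13 to 3.34 CPM in vehicle libraries at day 3, 6.45 to 14.3 against 2.68 to 3.61 CPM at day 6, 2.79 to 3.81 against 2.87 to 5.87 CPM at day 9, and 2.74 to 3.63 CPM at day 0. Kdr, a receptor of vascular endothelial growth factor, was the only one of the 3 that was called, with differences of 5.32 ± 0.38, 5.54 ± 0.38 and 2.26 ± 0.38 at days 3, 6 and 9, from a vehicle mean no higher than -2.49 log2 CPM on those days.

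Of 6 fibroblast markers 4 were in the table, with a summed level of 86.3 to 108 CPM in treated and 20.9 to 25.1 CPM in vehicle libraries at day 3, 51.8 to 59.5 against 29.9 to 33.6 CPM at day 6, and 42.6 to 48.4 against 34.8 to 38.6 CPM at day 9. At day 0, where Cavin2 was highest, the fibroblast sum was 9.69 to 10.4 CPM. In the group means after day 0 most of that sum was Dcn. The 4 did not move as one: at days 3 and 6 Dcn (2.76 and 1.26) and Pdgfra (1.44 and 1.19) rose, and Col1a1 (-1.38 and -1.82) and Col1a2 (-1.25 and -1.20) fell. Of 6 smooth muscle markers 3 were in the table, and their sums were 60.5 to 73.6 CPM in treated and 67.5 to 77.4 CPM in vehicle libraries at day 3, 70 to 79.4 against 93.4 to 108 CPM at day 6, 81.1 to 88.5 against 97.0 to 119 CPM at day 9, and 107 to 122 CPM at day 0. Most of that sum was Smtn, between 5.83 and 6.90 log2 CPM. Acta2 and Tagln stood no higher than 1.35 and 1.56 log2 CPM, where Tagln rose at day 3 (1.06) and Acta2 rose at days 6 and 9 (1.7 and 1.6), while Smtn fell at days 6 and 9 (-0.42 and -0.37). None of 5 adipocyte markers was in the table. Of 5 leukocyte markers only Cd68 and Csf1r were in the table, with sums of 7.88 to 11.3 CPM in treated and 28.4 to 29.6 CPM in vehicle libraries at day 3, 10.3 to 13.8 against 49.1 to 57.6 CPM at day 6, 45.7 to 50.8 against 87.6 to 108 CPM at day 9, and 9.59 to 10.7 CPM at day 0. After day 0 most of that sum was Cd68. In vehicle Cd68 averaged 4.83, 5.70 and 6.62 log2 CPM at days 3, 6 and 9, and Csf1r -0.68, -0.79 and -0.996. At day 0 Cd68 averaged 2.88 and Csf1r 1.36, so in vehicle Cd68 rose and Csf1r fell. With hormone both were called lower at days 3 and 6. At day 9 Cd68 was lower (5.55 log2 CPM in treated libraries), and Csf1r (-0.25) was not called. The part of such cells in the differences of Cavin2 or of the other coat genes was not tested.

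**Figure D2:**
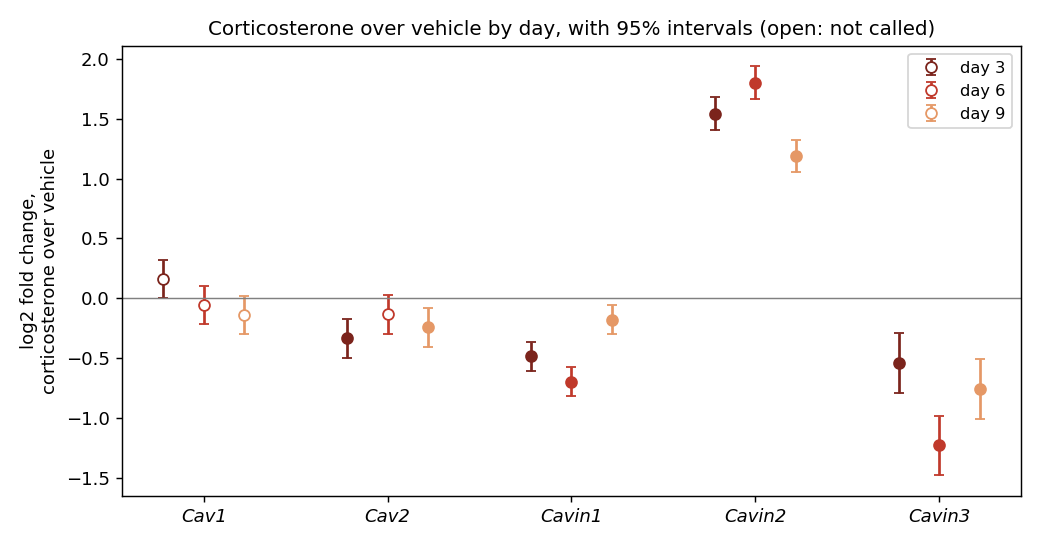
Log2 fold change of corticosterone over vehicle (vertical axis) for each gene, with 95% intervals of the fit over 28 libraries; darker to lighter points are days 3, 6 and 9, and open points were not called. Cavin2 lies between 1.19 and 1.80 above 0 on all 3 days, Cavin1 and Cavin3 lie below 0, and the 3 intervals of Cav1 stay within -0.30 and 0.32.

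Cavin1, also called PTRF, is the cavin without which caveolae do not form. At day 3 it stood at 7.06, 7.18, 7.13 and 7.17 log2 CPM in corticosterone replicates 1, 4, 5 and 6, against 7.59, 7.60, 7.64 and 7.65 in vehicle replicates 3 to 6. The groups did not overlap, and Cavin1 fell by 0.48 ± 0.06 (adjusted p = 1.5e-07). At day 6 it was at 7.15, 7.11, 7.30 and 7.27 in corticosterone replicates 1, 3, 5 and 6, against 7.79, 7.72, 8.04 and 8.06 in vehicle replicates 3 to 6.

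The day 6 difference was -0.70 ± 0.06 (1.62-fold, adjusted p = 2.0e-10), again without overlap, and in both groups replicates 5 and 6 were the higher pair. At day 9 the groups had come close, at 7.94, 7.90, 7.92 and 7.98 in corticosterone replicates 3 to 6, against 8.14, 8.12, 8.17 and 8.03 in vehicle replicates 3 to 6. This difference of -0.18 ± 0.06 (adjusted p = 0.0234) was lost without vehicle replicate 3 (-0.17), vehicle replicate 5 (-0.16) or corticosterone replicate 4 (-0.17). The hormone difference at day 9 was smaller in size than at day 6, by 0.52 ± 0.08 (adjusted p = 2.5e-05), and than at day 3, by 0.30 ± 0.08 (adjusted p = 0.00509).

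Between days 6 and 9 Cavin1 rose by 0.73 ± 0.06 in treated cultures (adjusted p = 1.3e-10) and by 0.21 ± 0.06 in vehicle (adjusted p = 0.0268), the second a call that ended without any 1 of 5 of the 8 libraries, vehicle day 6 replicate 3 or 4 or vehicle day 9 replicate 3, 4 or 5 (0.15 to 0.21), with quantile normalization (0.17), and with the compared groups fitted alone (adjusted p = 0.136). Vehicle cultures averaged 8.47 ± 0.04, 7.62 ± 0.03, 7.91 ± 0.17 and 8.11 ± 0.06 log2 CPM at days 0, 3, 6 and 9, so a drop of 0.85 ± 0.06 in the first 3 days (adjusted p = 1.4e-12) was followed by higher values at day 6 (0.29 ± 0.06, adjusted p = 0.00074). Under the alternatives that left no library out, the log2 fold change of day 3 over day 0 lay between -0.85 and -0.60. At day 9 Cavin1 was still lower than at day 0 (-0.35 ± 0.06, adjusted p = 8.1e-06), by a smaller amount with quantile normalization (-0.16).

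Cavin3, also called SRBC or PRKCDBP, is a cavin that binds protein kinase C delta. At day 3 it stood at 3.98, 4.47, 4.10 and 4.21 log2 CPM in corticosterone replicates 1, 4, 5 and 6, against 4.66, 4.69, 4.83 and 4.73 in vehicle replicates 3 to 6. All treated libraries lay below all vehicle ones, and Cavin3 fell by 0.54 ± 0.12 (adjusted p = 0.00059), or by 0.63 without corticosterone replicate 4, the library that stood apart. At day 6 it was at 3.83, 3.83, 4.09 and 4.13 in corticosterone replicates 1, 3, 5 and 6, against 4.93, 4.90, 5.48 and 5.48 in vehicle replicates 3 to 6.

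The day 6 difference was -1.23 ± 0.12 (2.34-fold, adjusted p = 3.3e-09), and here too replicates 5 and 6 were the higher pair in both groups. It had widened relative to day 3, a change of -0.69 ± 0.17 (adjusted p = 0.0101), the one change between days 3 and 6 called among the 5 genes, where 9.11% of all genes were called. At day 9 Cavin3 was at 4.98, 4.83, 4.98 and 4.89 in corticosterone replicates 3 to 6, against 5.62, 5.52, 5.66 and 5.93 in vehicle replicates 3 to 6, a difference of -0.76 ± 0.12 (1.69-fold, adjusted p = 2.8e-05). The groups were apart on all 3 days. The change of the difference between days 6 and 9, 0.47 ± 0.17 (adjusted p = 0.0388), was lost without any 1 of 10 of the 16 libraries, namely vehicle day 6 replicate 5 or 6, vehicle day 9 replicate 3, 4 or 5, corticosterone day 6 replicate 1 or 3, or corticosterone day 9 replicate 3, 5 or 6 (0.37 to 0.48). It was also lost on the log2(CPM + 5) scale (0.34, adjusted p = 0.0796) and with the compared groups fitted alone (adjusted p = 0.0557).

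In vehicle, Cavin3 was the one gene of the 5 above its day 0 level at day 9. Vehicle cultures averaged 4.71 ± 0.11, 4.73 ± 0.07, 5.20 ± 0.33 and 5.68 ± 0.17 log2 CPM at days 0, 3, 6 and 9. The difference of day 3 from day 0 was 0.02 ± 0.12 (adjusted p = 0.894), and Cavin3 then rose in each of the next steps, by 0.47 ± 0.12 to day 6 (adjusted p = 0.00579) and by 0.49 ± 0.12 from there to day 9 (adjusted p = 0.0110). The last call ended without vehicle day 6 replicate 3 (0.40) or 4 (0.39) or vehicle day 9 replicate 6 (0.40), and with those groups fitted alone (adjusted p = 0.0775). Treated cultures averaged 4.19 ± 0.21, 3.97 ± 0.16 and 4.92 ± 0.07 at days 3, 6 and 9, and rose by 0.96 ± 0.12 in the last 3 days (adjusted p = 3.1e-07).

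Caveolin-1, the product of Cav1, is the main structural protein of caveolae outside muscle. At day 3 Cav1 stood at 6.34, 6.27, 6.22 and 6.28 log2 CPM in corticosterone replicates 1, 4, 5 and 6, against 6.19, 6.04, 6.1 and 6.15 in vehicle replicates 3 to 6. The treated libraries were the 4 highest of the 8, but the difference of 0.16 ± 0.08 was not called (adjusted p = 0.0911, 95% interval 0.00 to 0.32). At days 6 and 9 the groups overlapped, and the differences were -0.06 ± 0.08 (adjusted p = 0.591, interval -0.22 to 0.10) and -0.14 ± 0.08 (adjusted p = 0.197, interval -0.30 to 0.02).

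The Cav1 values behind them were 6.04, 6.03, 6.22 and 5.71 in corticosterone replicates 1, 3, 5 and 6, against 6.18, 6.01, 5.96 and 6.06 in vehicle replicates 3 to 6 at day 6. At day 9 they were 6.19, 6.17, 6.18 and 6.02 in corticosterone replicates 3 to 6, against 6.42, 6.15, 6.41 and 6.16 in vehicle replicates 3 to 6. No treated group was set clearly apart from its vehicle group after the hormone was removed. The change of the hormone difference from day 3 to day 9, -0.30 ± 0.11, passed the threshold (adjusted p = 0.0335), but it did not without any 1 of 6 of the 16 libraries, vehicle day 3 replicate 4 or 5, vehicle day 9 replicate 3 or 5, corticosterone day 3 replicate 1 or corticosterone day 9 replicate 6 (-0.29 to -0.25). Of the 5 genes 3 were called in that comparison of days, and 3 in the one of days 9 and 6, against 38.3% and 30.9% of all genes.

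The larger differences of Cav1 lay between day 0 and every later group. The day 0 libraries held 7.70, 7.68, 7.66 and 7.66 log2 CPM, and no library of any later group exceeded 6.42. In vehicle Cav1 fell by 1.56 ± 0.08 in the first 3 days (2.94-fold, adjusted p = 1.7e-15), and at day 9 it was still lower than at day 0 (-1.39 ± 0.08, adjusted p = 1.8e-14). Group means after day 0 lay between 6.00 and 6.28 log2 CPM. Within treated cultures Cav1 fell by 0.28 ± 0.08 between days 3 and 6 (adjusted p = 0.00794), a call that ended with the day 3 and day 6 groups fitted alone (adjusted p = 0.0993).

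Caveolin-2, the product of Cav2, depends on caveolin-1 to leave the Golgi and is not required for caveolae to form. At day 3 Cav2 stood at 6.33, 6.09, 6.51 and 6.21 log2 CPM in corticosterone replicates 1, 4, 5 and 6, against 6.58, 6.57, 6.64 and 6.69 in vehicle replicates 3 to 6. The treated libraries were the lower ones and the more scattered, and Cav2 fell by 0.33 ± 0.08 (adjusted p = 0.000988), or by 0.27 without corticosterone replicate 4. At day 6, with 6.16, 6.26, 6.45 and 6.24 in corticosterone replicates 1, 3, 5 and 6, against 6.37, 6.51, 6.43 and 6.33 in vehicle replicates 3 to 6, the groups overlapped and the difference of -0.13 ± 0.08 was not called (adjusted p = 0.174, interval -0.30 to 0.03).

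At day 9 Cav2 was at 6.22, 6.36, 6.45 and 6.51 in corticosterone replicates 3 to 6, against 6.74, 6.51, 6.51 and 6.75 in vehicle replicates 3 to 6. The difference of -0.24 ± 0.08 (adjusted p = 0.0231) was lost without vehicle replicate 3 (-0.20), vehicle replicate 6 (-0.20), corticosterone replicate 3 (-0.19) or corticosterone replicate 4 (-0.23). No change of its hormone difference between days was called (0.20 ± 0.11, 0.09 ± 0.11 and -0.11 ± 0.11 for day 6 minus 3, day 9 minus 3 and day 9 minus 6; adjusted p = 0.305, 0.544 and 0.505). In vehicle Cav2 was lower than at day 0, with log2 fold changes of -0.23 ± 0.08 for day 3 (adjusted p = 0.0117) and -0.22 ± 0.08 for day 9 (adjusted p = 0.0139). Both calls ended with quantile normalization (-0.15 and -0.16), and that of day 9 also without vehicle day 9 replicate 4 (-0.19) or 5 (-0.18). The levels from highest to lowest ran vehicle day 0, vehicle day 9, vehicle day 3, vehicle day 6, corticosterone day 9, corticosterone day 3 and corticosterone day 6, of which only the step below vehicle day 0 and the step below vehicle day 3 separated neighbours whose libraries did not overlap.

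The order of levels differed between genes. Cavin1 ran from vehicle day 0 through vehicle day 9, corticosterone day 9, vehicle day 6, vehicle day 3 and corticosterone day 6 to corticosterone day 3, with overlap between corticosterone day 9 and vehicle day 6 and between the lowest pair. Cavin2 ran from vehicle day 0 and corticosterone day 3, which overlapped, through corticosterone day 6, then corticosterone day 9 and vehicle day 3, which overlapped, to vehicle day 6 and vehicle day 9. Cavin3 ran from vehicle day 9 through vehicle day 6 and corticosterone day 9, which overlapped, vehicle day 3 and vehicle day 0, which overlapped, to corticosterone day 3 and corticosterone day 6, which overlapped. For Cav1, vehicle day 0 stood alone, vehicle day 9 and corticosterone day 3 overlapped, and the other 4 groups each overlapped the next.

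Over the days in vehicle, 4 of the 5 genes were called at day 3 against day 0, all lower, where 69.2% of all genes were called. At day 9 against day 0 all 5 were called, 4 lower and Cavin3 higher (0.97 ± 0.12, adjusted p = 8.0e-08), where 70.4% of all genes were called. Between days 3 and 6 of vehicle 3 were called (24.0% of all genes), and between days 6 and 9 again 3 (7.84% of all genes). In both of these steps Cavin2 fell, by 0.62 ± 0.07 (adjusted p = 9.0e-08) and by 0.49 ± 0.07 (adjusted p = 1.4e-05). In treated cultures 2 genes, Cav1 and Cavin2, were called between days 3 and 6 (30.3% of all genes), and Cavin2 fell by 0.36 ± 0.07 (adjusted p = 0.000163). Between days 6 and 9 of treated cultures 3 were called (49.6% of all genes), and Cavin2 fell by 1.10 ± 0.07 (adjusted p = 4.45e-13) while Cavin1 and Cavin3 rose. Comparisons over time share groups with each other and with the hormone comparisons, so their values stand side by side and are not independent.

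**Figure D3:**
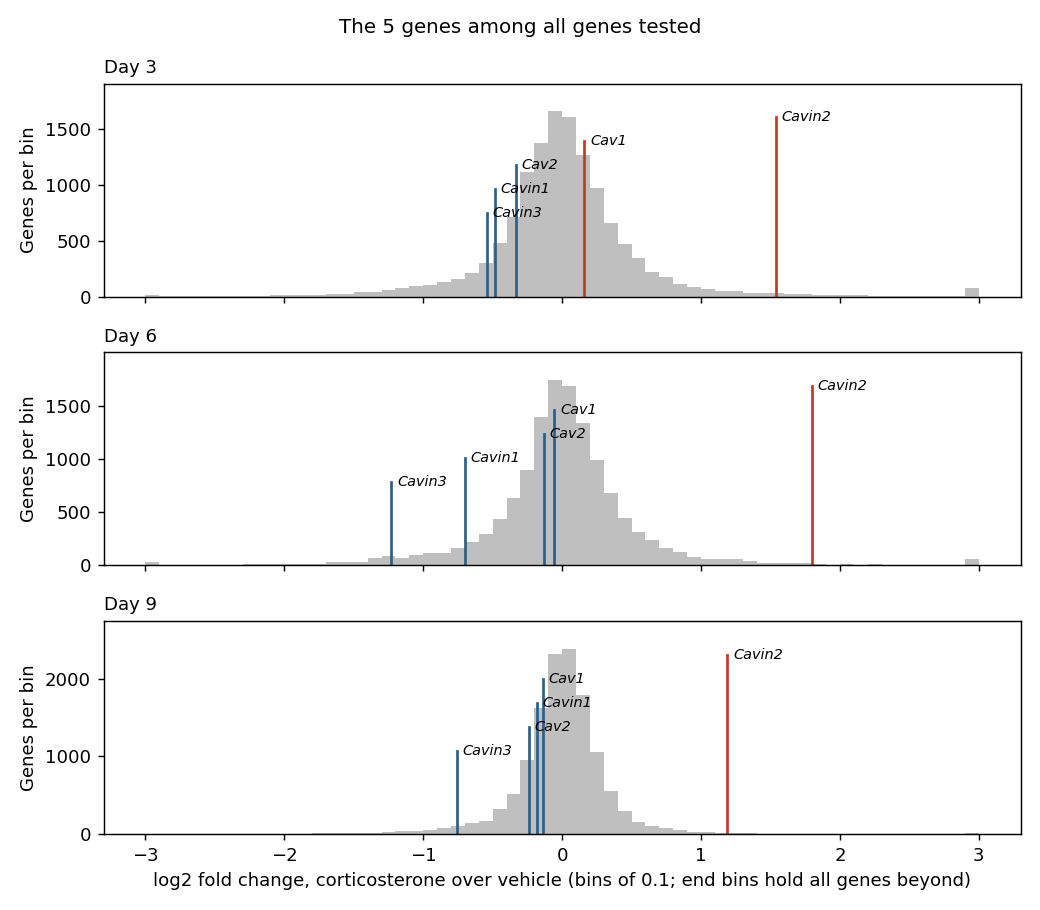
Number of genes (vertical axis, bins of 0.1) by log2 fold change of corticosterone over vehicle (horizontal axis) at days 3, 6 and 9, with the 5 genes as vertical lines, red above and blue below 0; line heights only keep the labels apart. Cavin2 lies in the sparse upper flank on each day (1.54, 1.80 and 1.19), and Cavin3 moves out to -1.23 at day 6.

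Because cavins share one coat, their levels were also put on a common scale, CPM per kb of the longest protein-coding transcript (3491 bases for Cavin1, 3055 for Cavin2, 1662 for Cavin3, 2746 for Cav1 and 2733 for Cav2). At day 0 the means were 101 for Cavin1, 48.1 for Cavin2, 15.8 for Cavin3, 74.4 for Cav1 and 42.3 for Cav2 CPM per kb. At day 3 Cavin2 had 46.3 ± 2.59 in corticosterone and 15.9 ± 0.61 in vehicle (mean ± SD, n = 4), and Cavin1 had 40.3 ± 1.58 in corticosterone and 56.3 ± 1.20 in vehicle. Per length, all 4 treated libraries of day 3 held more Cavin2 than Cavin1, and the 4 vehicle libraries held less. At day 9 Cavin2 had 16.8 ± 0.65 in corticosterone and 7.38 ± 0.38 in vehicle, where Cavin1 had 70.1 ± 1.55 and 79.4 ± 3.36.

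As a share of the 3 cavins per length, Cavin2 made up 47.4% ± 1.64 in corticosterone and 18.0% ± 0.87 in vehicle at day 3, 41.1% ± 4.04 and 10.3% ± 1.85 at day 6, and 16.0% ± 0.30 and 6.26% ± 0.36 at day 9, against 29.1% ± 0.96 at day 0. Cavin1 made up 41.3% in corticosterone and 63.9% in vehicle at day 3, 48.2% and 67.8% at day 6, and 66.6% and 67.4% at day 9. Cavin3 made up 11.3% in corticosterone and 18.1% in vehicle at day 3, 10.7% and 21.9% at day 6, and 17.4% and 26.4% at day 9, against 9.54% at day 0. Of the 2 caveolins, Cav1 made up 63.8% ± 1.18 at day 0 and between 41.2% and 49.7% in the later groups. Cav1 and Cav2 have transcripts as short as 380 and 694 bases, so a share between these genes depends on the transcript assumed.

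**Figure D4:**
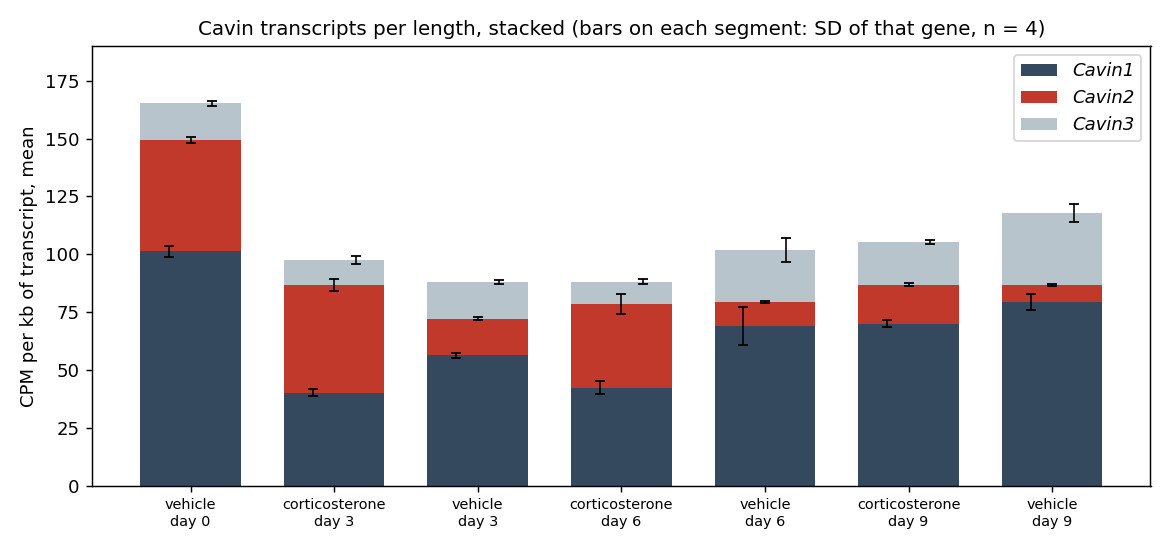
Mean level of the 3 cavins in CPM per kb of transcript (vertical axis, from 0), stacked, in the 7 groups (horizontal axis); the error bar on each segment is the SD of that gene over 4 libraries. The Cavin2 segment is 46.3 in corticosterone and 15.9 in vehicle at day 3, and 16.8 and 7.38 at day 9.

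Whether the genes changed by unequal amounts was tested within libraries, where the scaling of a library cancels. The log2 ratio of 2 genes was compared by 2-sided exact permutation of the 4 corticosterone and 4 vehicle libraries of a day, whose smallest possible p is 0.0286, for 4 pairs on 3 days (12 tests, Benjamini-Hochberg adjusted). Cavin2 over Cavin1 was higher by 2.02, 2.50 and 1.37 log2 units at days 3, 6 and 9 (exact p = 0.0286 and adjusted p = 0.0429 each, groups fully apart). On each day all treated libraries lay above vehicle for Cavin2 and below it for Cavin1. The ratio therefore had to separate and its exact p had to be the smallest possible, so the p-value adds nothing to the values of the 2 genes. The group means were 0.01 in corticosterone and -2.02 in vehicle at day 3, -0.43 and -2.93 at day 6, and -2.25 and -3.62 at day 9.

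The ratio of Cavin3 to Cavin1 differed by -0.06 at day 3 (exact p = 0.543, adjusted p = 0.592), and it was lower by 0.53 at day 6 and 0.58 at day 9 in log2 units (differences -0.53 and -0.58, exact p = 0.0286, adjusted p = 0.0429 each). Cavin1 over Cav1, the cavin and the caveolin on which caveolae depend most, differed by -0.64 at day 3 and -0.64 at day 6 (exact p = 0.0286, adjusted p = 0.0429 each) and by -0.04 at day 9 (exact p = 0.6, adjusted p = 0.6). Cav2 over Cav1 differed by -0.50 at day 3 (exact p = 0.0286, adjusted p = 0.0429), and by -0.08 and -0.10 at days 6 and 9 (exact p = 0.543 and 0.486, adjusted p = 0.592 each). At day 3 all treated libraries lay below vehicle for Cavin1 and Cav2 and above it for Cav1. Both ratios over Cav1 therefore had to reach the smallest p on that day. These tests, like those of Cavin2 over Cavin1, were part of the adjustment. They lowered the adjusted p of Cavin3 over Cavin1 at days 6 and 9 and of Cavin1 over Cav1 at day 6. An adjustment without them was not made, so no call is read from those adjusted p-values.

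Genes with the most similar course were found for each of the 5 as the smallest root mean square difference of centred log2 CPM over the 28 libraries, among 11683 genes with a mean of at least 1 log2 CPM. For Cavin2 they were Atoh8, a basic helix-loop-helix factor (0.251), Bdnf, a neurotrophin (0.380), and Id3, an inhibitor of DNA binding (0.395), where the median of all genes was 1.03. Atoh8 averaged 5.06, 4.68 and 3.27 log2 CPM in corticosterone at days 3, 6 and 9, against 3.68, 2.93 and 2.37 in vehicle, and 4.65 at day 0. For Cav1 they were Thbs1, which encodes thrombospondin-1 (0.174), Odc1, ornithine decarboxylase (0.189), and Fez2 (0.200), with a median of 0.60. Thbs1, like Cav1, was highest at day 0 (9.12 log2 CPM) and between 7.61 and 7.79 in the later groups.

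For Cavin1 they were Lmna, which encodes lamins A and C (0.110), Cdc45, of the replicative helicase (0.119), and Tuba1c, an alpha-tubulin with close paralogs (0.122), with a median of 0.504. For Cavin3 they were Nanos1, an RNA-binding protein (0.173), Bok, of the Bcl2 family (0.180), and Pafah1b3, a subunit of a platelet-activating factor hydrolase (0.205), with a median of 0.621. For Cav2, which varied least, they were the cohesin regulator Pds5a (0.103), the sphingosine-1-phosphate phosphatase Sgpp1 (0.107) and the kinase Cdk17 (0.109), with a median of 0.332. Among the 5 genes the smallest distance was that of Cav2 and Cavin1 (0.332), and the largest that of Cavin2 and Cavin3 (1.49). Cavin1 was no closer to Cav2 than the median gene was. The distance of Cavin1 and Cavin3 (0.405) was below the medians of both. The 28 libraries share groups, so these distances mostly reflect 7 group means.

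Proteins of the caveolar neck and accessory proteins were listed beside the coat: EHD ATPases, pacsins, dynamins, Ror1, Cav3 and Cavin4. Of 13 listed, 9 were in the table. In corticosterone against vehicle 2 were higher and 3 lower at day 3 (median -0.23), 3 higher and 1 lower at day 6 (median 0.02), and 2 higher and 2 lower at day 9 (median 0.05). The 5, 4 and 4 of 9 called stand beside 49.0%, 47.2% and 28.5% of all genes, and nothing about the list is read from them. Dnm1, a dynamin best known from neurons, fell by 0.59 ± 0.06, 1.13 ± 0.06 and 0.61 ± 0.06 at days 3, 6 and 9 (adjusted p = 2.4e-08, 9.7e-14 and 6.7e-08), and the ubiquitous Dnm2, which cuts vesicles free, was higher at days 3 and 6 (0.43 ± 0.06 and 0.32 ± 0.06) but not called at day 9 (-0.02 ± 0.06, adjusted p = 0.826). Ehd3, of the EHD family, rose by 0.51 ± 0.07, 0.77 ± 0.07 and 0.46 ± 0.07.

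Kinases that phosphorylate caveolin-1 and proteins that tie caveolae to actin (11 of 11 in the table) had 1 higher and 4 lower at day 3 (median -0.19) and 1 higher and 1 lower at day 6 (median 0.01), where 49.0% and 47.2% of all genes were called. The day 6 count of 2 was 5 with the compared groups alone and 6 with library weights. These settings also called more of the 13128 genes at day 6, 6776 and 7501 in place of 6194. At day 9 limma called 0 of them, against 28.5% of all genes, and none had an unadjusted p under 0.05. None was called under any alternative that left no library out, and leaving out a library was not tried for the lists. The filamin gene Flnc, which encodes an actin cross-linker, fell at day 3, by 0.29 ± 0.06 (adjusted p = 0.000599), as did the Src-family kinase gene Fyn, by 0.34 ± 0.06 (adjusted p = 4.1e-05), and neither was called at day 6.

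Of 5 genes for VCP, an ATPase that sorts ubiquitinated caveolin-1, and its cofactors, 1 was higher and 2 lower at day 3 (median -0.17), 1 higher and 4 lower at day 6 (median -0.18), and 2 higher and 1 lower at day 9 (median -0.04), beside 49.0%, 47.2% and 28.5% of all genes called. Vcp fell by 0.32 ± 0.04 and 0.18 ± 0.04 at days 3 and 6 (adjusted p = 1.5e-06 and 0.00149) and rose by 0.42 ± 0.04 at day 9 (adjusted p = 6.55e-08). The cofactor gene Ubxn6 was higher at days 3 and 6 (0.39 ± 0.08 and 0.33 ± 0.08) and not called at day 9 (-0.04 ± 0.08). Ankrd13a, a ubiquitin-binding adaptor, was at -0.04 ± 0.03 at day 3 and fell by 0.08 ± 0.03 and 0.16 ± 0.03 at days 6 and 9.

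For comparison, flotillins mark membrane microdomains outside caveolae, and clathrin coats serve another route of uptake. Flot1 rose by 0.48 ± 0.09 and 0.58 ± 0.09 and Flot2 by 0.20 ± 0.05 and 0.31 ± 0.05 at days 3 and 6. At day 9 Flot1 was lower (-0.26 ± 0.09, adjusted p = 0.0429), a call that ended with the replicate number as a block, without the intensity trend and with the compared groups alone. Of 14 clathrin, AP-2 and adaptor genes, 2 were higher and 3 lower at day 3 (median 0.01) and 2 higher and 2 lower at day 6 (median -0.02), where 49.0% and 47.2% of all genes were called. At day 9 limma called 0, against 28.5% of all genes, with 4 at an unadjusted p under 0.05 and 0 to 3 called under the alternatives (median 0.04). Those alternatives, which left no library out, called 3507 to 5424 genes in place of 3736. Picalm, a clathrin assembly protein gene, rose by 0.53 ± 0.05 and 0.61 ± 0.05 at days 3 and 6, Epn2, an epsin, by 0.59 ± 0.09 and 0.41 ± 0.09, and Cltc, the clathrin heavy chain, fell by 0.37 ± 0.04 and 0.18 ± 0.04.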

How the data were processed

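RNA of DC2 cells was taken with TRIzol and 500 ng of it entered a stranded mRNA kit, per the labels. The deposited table holds log2 CPM values that, going by its name, the authors had normalized. Kallisto (version not named), edgeR 3.40.1, limma 3.54.0 and the build mm10 appear in the submitters' processing notes, in no stated role. How the values were normalized, with which prior count and annotation, is not given in the sources used here. Back on the linear scale a library sums to between 949069 and 1059648 CPM. The lowest value of the table is -4.15, and none of the 5 genes stands at it. Depth is unknown, so precision rests on the spread between libraries. The smallest root mean square difference between any 2 libraries was 0.282, so none was a copy.

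The filter (log2 CPM above 0 in 4 or more libraries) removed 0 of 13128 genes; 1 entry without a symbol was left out. limma 3.58.1 in R 4.3.3 fitted 1 mean per group to all 28 libraries (21 residual degrees of freedom), with empirical Bayes moderation and an intensity trend, and 12 contrasts were adjusted by Benjamini-Hochberg over all genes each. The code was tested on simulated data. Ratios were tested by exact permutation with scipy 1.17.1. Loci, transcript lengths and overlaps came from GENCODE M21 of GRCm38, joined by symbol.

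The 5 genes, the lists and the rule for named genes (all 5; from each list up to 3 genes with the smallest p in any corticosterone comparison; 3 most similar genes per gene) were chosen with earlier results of these data known. Alternatives were no filter, a filter at 2 log2 CPM, log2(CPM + 1) and log2(CPM + 5), median centring, quantile normalization, only the compared groups, no trend, robust moderation, weights per library, the replicate number as a block, and leaving out each library.

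Replicate numbers were checked as pairs by correlating deviations from group means over all genes. At day 6 the 3 shared numbers gave 0.156, 0.126 and 0.110, each above 0.1, the bar set for pairing, but unlike numbers correlated as highly (0.229 for corticosterone replicate 3 with vehicle replicate 4, 0.170 for 6 with 5 and 0.130 for 1 with 4), so the number does not stand out; at day 3 they gave 0.071, -0.031 and 0.059, and at day 9 between 0.032 and 0.167.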

Additional observations from a re-analysis of the deposited data

Results flagged for a closer look

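A library lay far from its 3 companions in 2 of 35 gene and group combinations checked with Dixon's test, where chance flags about 1 in 20. Cav1 in corticosterone day 9 replicate 6 was at 6.02 log2 CPM, with the other 3 libraries at 6.17 to 6.19. Cavin2 in corticosterone day 6 replicate 6 was at 6.51 log2 CPM, with the other 3 at 6.86 to 6.89, and without it the day 6 difference of Cavin2 was 1.89 in place of 1.80.

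A change of the hormone difference between days was called for 4 genes when the comparisons of days are pooled. Of all genes, 9.11% were called from day 3 to day 6. From day 3 to day 9 the share was 38.3%, and from day 6 to day 9 it was 30.9%. The share of all genes called in any of these comparisons was not counted, so nothing is read from the count of 4. Cavin3 changed by -0.69 from day 3 to day 6. From day 3 to day 9, Cav1 changed by -0.30, Cavin1 by 0.30 and Cavin2 by -0.35. From day 6 to day 9, Cavin1 changed by 0.52, Cavin2 by -0.61 and Cavin3 by 0.47. For Cavin1 and Cavin2 the changes to day 9 run toward vehicle, with opposite signs because Cavin1 was lower and Cavin2 higher with hormone. The alternatives under which the Cav1 change and the last Cavin3 change were not called stand beside them above.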

How the results depend on the processing

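No result changed direction while called under any alternative. With the replicate block the hormone differences of Cavin2 were 1.55, 1.80 and 1.19 and those of Cavin1 -0.47, -0.68 and -0.18 at days 3, 6 and 9; the block changed no call of the 5 genes and gave 6325, 5993 and 3827 called genes in place of 6429, 6194 and 3736. With library weights Cav1 passed the threshold at day 3 (0.18, adjusted p = 0.0419) and at day 9 (-0.18, adjusted p = 0.0310), and the number of the 5 genes called was 2 in place of 1 for the change of the hormone difference from day 3 to 6 and 5 in place of 3 for vehicle day 9 over day 6. The weights raised the number of all genes called with hormone to 6872, 7501 and 5424 at days 3, 6 and 9. For the last 2 comparisons that number was not counted. With the compared groups fitted alone, 1 in place of 3 was called for vehicle day 9 over day 6 and 1 in place of 2 for corticosterone day 6 over day 3. Leaving out 1 library at a time, the day 9 hormone difference ranged from -0.28 to -0.19 for Cav2 and from -0.21 to -0.16 for Cavin1, and the number called ranged from 2 to 4 at day 9, from 1 to 2 for day 6 minus day 3, and from 1 to 3 for vehicle day 9 over day 6. With a library left out at day 9, 3128 to 3426 of all genes were called in place of 3736. For day 6 minus day 3 and vehicle day 9 over day 6 that number was not counted. The Cavin2 difference stayed between 1.45 and 1.57 at day 3, 1.65 and 1.89 at day 6, and 1.03 and 1.22 at day 9 under all alternatives. Ratios with a library left out were taken as values only, since 3 against 4 libraries cannot go below p = 0.0571 in an exact permutation test. Read depth is unknown, so what it limits could not be stated.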

Other observations

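At day 6, Cavin1 and Cavin3 split the vehicle libraries in the same way. Replicates 5 and 6 held 8.04 and 8.06 log2 CPM of Cavin1 and 5.48 and 5.48 of Cavin3, whereas replicates 3 and 4 held 7.79 and 7.72 of Cavin1 and 4.93 and 4.90 of Cavin3. In corticosterone libraries of that day, replicates 5 and 6 held 7.30 and 7.27 of Cavin1 and 4.09 and 4.13 of Cavin3, whereas replicates 1 and 3 held 7.15 and 7.11 of Cavin1 and 3.83 and 3.83 of Cavin3. Cavin2 split the vehicle libraries the other way, with 4.94 and 4.88 in replicates 5 and 6 and 5.05 and 5.05 in replicates 3 and 4. With the number as a block the day 6 differences of Cavin1 and Cavin3 were -0.68 and -1.19. The pattern was noticed after the values were seen.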
